A study of Mus musculus with 40 samples.

Results

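Autosomal H3K27ac was compared between the 2 double mutants of the study, Flt3-ITD/NUP98-HOXD13 (4 samples) and Flt3-ITD/Runx1-het (3 samples). Haematopoietic stem and progenitor cells were sorted from mice 21 days old, and the mark was mapped by ChIPmentation, an immunoprecipitation of chromatin with adapters put in by the transposase Tn5. The Flt3-ITD allele is common to both groups, so they differ in the partner lesion. The other H3K27ac groups used here are NUP98-HOXD13 (4 samples) and Runx1-het, Flt3-ITD and wild type (3 samples each), of the same age. The source names of the Runx1-het groups carry the words Runxf and Vav, and the exact alleles, the promoter behind the fusion and any pooling of animals are not stated in the sources used here. Each group has 1 pooled peak list, so there is no value per animal, no test between groups and no p-value. The peaks of both lists on the 19 autosomes were merged where they overlapped by at least 1 bp, which gave 46805 regions. Of these, 10245 were held by the Flt3-ITD/NUP98-HOXD13 list only, 14928 by the Flt3-ITD/Runx1-het list only and 21632 by both. A region counts as outside a list when that list has no peak over it, which is set by the authors' threshold and is not a measured zero. The fold enrichment quoted for a peak is the authors' own value, which describes and ranks peaks within its list.

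H3K27ac is laid down by the acetyltransferases CBP and p300 and marks active promoters and enhancers. FLT3 is a receptor tyrosine kinase of early progenitors, and the internal tandem duplication (ITD) keeps it signalling without its ligand, through STAT5 and the RAS-MAPK pathway. NUP98-HOXD13 joins a nucleoporin to the homeodomain of a HOX protein and is known for high HOXA cluster activity in leukaemia. HOX proteins bind DNA together with the cofactors PBX and MEIS. RUNX1 is a transcription factor of definitive haematopoiesis, and loss of 1 copy predisposes people to platelet disorders and leukaemia.

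The promoters of 4 genes that stood on opposite sides of the comparison show the sequences behind the values below. Hoxb8 and Hoxa10, both HOX transcription factor genes, had a promoter peak, of the double mutants, in the Flt3-ITD/NUP98-HOXD13 list only. Tnfsf13, which encodes the cytokine APRIL, and Socs3, an inhibitor of JAK-STAT signalling, had one in the Flt3-ITD/Runx1-het list only. The 250 bases before the start site are from RefSeq on GRCm38.p6, written 5′ to 3′ on the strand of the gene. Capitals mark any match, on either strand, to RUNX (TGTGGT), PBX-HOX (TGATTNAT), MEIS (TGACAG) or STAT (TTCNNNGAA).
Hoxb8, chr11:96281655-96281904, plus strand: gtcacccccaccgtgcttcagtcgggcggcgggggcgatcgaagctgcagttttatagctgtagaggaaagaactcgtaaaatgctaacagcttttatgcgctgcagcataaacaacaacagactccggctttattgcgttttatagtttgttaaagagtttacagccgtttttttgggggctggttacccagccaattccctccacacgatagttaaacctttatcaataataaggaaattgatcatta
Hoxa10, chr6:52234940-52235189, minus strand: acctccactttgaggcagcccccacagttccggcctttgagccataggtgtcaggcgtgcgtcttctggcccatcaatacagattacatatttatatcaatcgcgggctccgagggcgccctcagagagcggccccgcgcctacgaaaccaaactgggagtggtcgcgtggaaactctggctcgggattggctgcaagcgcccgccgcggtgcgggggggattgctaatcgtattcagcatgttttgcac
Tnfsf13, chr11:69685555-69685804, minus strand: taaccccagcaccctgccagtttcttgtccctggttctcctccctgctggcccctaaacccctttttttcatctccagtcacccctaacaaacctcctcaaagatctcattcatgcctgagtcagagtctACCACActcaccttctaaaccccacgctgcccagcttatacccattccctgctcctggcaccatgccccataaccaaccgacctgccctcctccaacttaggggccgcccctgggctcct
Socs3, chr11:117969367-117969616, minus strand: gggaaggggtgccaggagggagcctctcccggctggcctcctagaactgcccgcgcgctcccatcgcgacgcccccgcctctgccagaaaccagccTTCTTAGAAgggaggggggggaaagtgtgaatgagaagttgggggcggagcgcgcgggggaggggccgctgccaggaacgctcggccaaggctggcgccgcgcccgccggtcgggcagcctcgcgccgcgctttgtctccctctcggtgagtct

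Neither HOX promoter held any of these letter patterns in its window, the Tnfsf13 promoter held the RUNX letters once, on the opposite strand, and the Socs3 promoter held the STAT letters once. Of all 15680 autosomal promoters with a sequence, 12.1% held the RUNX letters, 2.63% the PBX-HOX letters, 15.2% the MEIS letters and 6.75% the STAT letters. A match is a description of the letters only. No comparison of base composition or motif share between the genes of one list and the other is drawn here. Part of the genes had no sequence. One was at hand for 73.9% of the genes with a promoter peak in the Flt3-ITD/NUP98-HOXD13 list only. It was at hand for 76.4% of those with one in the Flt3-ITD/Runx1-het list only and 75.8% of all autosomal genes.

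Shared regions held 69.3% of the peaks of the Flt3-ITD/NUP98-HOXD13 list and 64.6% of those of the Flt3-ITD/Runx1-het list. The regions held by one list only made up 21.9% of the merged regions for Flt3-ITD/NUP98-HOXD13 and 31.9% for Flt3-ITD/Runx1-het, so that 40.7% of all one-list regions were those of Flt3-ITD/NUP98-HOXD13. This order turned round with the length of the lists. The Flt3-ITD/NUP98-HOXD13 list had 33417 autosomal peaks and the Flt3-ITD/Runx1-het list 42137. For lists of equal length the Flt3-ITD/Runx1-het list was shortened to 33417 peaks by −log10 p. The Flt3-ITD/NUP98-HOXD13 list stayed whole, so its share of one-list regions could only hold or rise. Then 11832 regions were Flt3-ITD/NUP98-HOXD13 only and 9050 were Flt3-ITD/Runx1-het only, a share of 56.7%. At a −log10 q of at least 5 the counts were 4976 for Flt3-ITD/NUP98-HOXD13 only, against 3141 for Flt3-ITD/Runx1-het only, a share of 61.3%. Which double mutant had more regions of its own is therefore not settled by these lists.

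**Figure D1:**
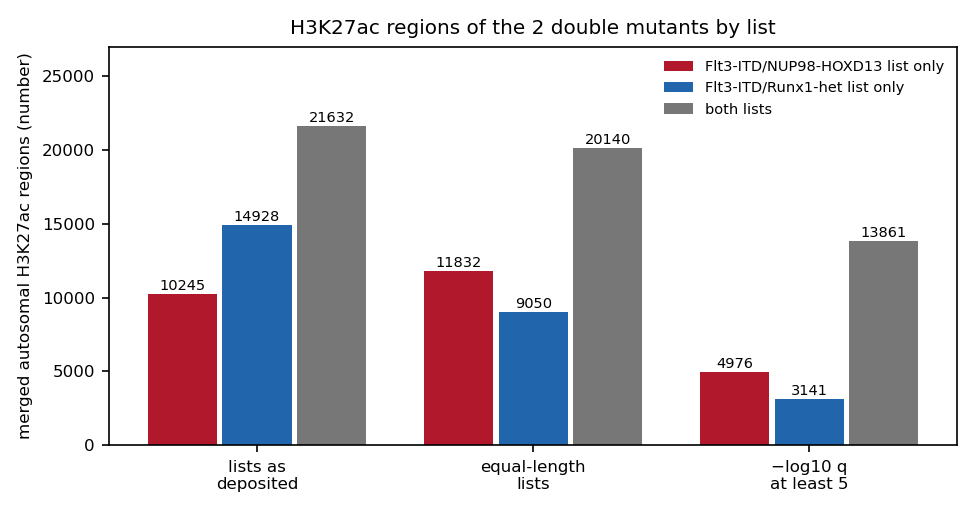
Number of merged autosomal H3K27ac regions (y axis) held by the Flt3-ITD/NUP98-HOXD13 list only, the Flt3-ITD/Runx1-het list only or both, for the lists as deposited, for lists of equal length and for peaks with a −log10 q of at least 5. The Flt3-ITD/Runx1-het bar is the higher of the one-list bars in the deposited lists (10245 and 14928) and the lower one under both other settings.

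The peaks of Flt3-ITD/NUP98-HOXD13 were wider. Their median width was 885 bp, against 585 bp in Flt3-ITD/Runx1-het, they covered 43.9 Mb, against 39.4 Mb, and 504 of them, against 165, spanned at least 5 kb. Regions of one list only were narrow and weak on both sides, with a median width of 478 bp in the Flt3-ITD/NUP98-HOXD13 class and 352 bp in the Flt3-ITD/Runx1-het class, and 1609 bp in shared regions. The median fold enrichment was 3.52 in the Flt3-ITD/NUP98-HOXD13 class and 3.61 in the Flt3-ITD/Runx1-het class, and 6.13 in shared regions in either list. The classes parted at the strong end. A fold enrichment of at least 10 in its own list was reached by 39 regions of Flt3-ITD/NUP98-HOXD13 only, up to 59.5. It was reached by 5 regions of Flt3-ITD/Runx1-het only, up to 11.6. Of the shared regions, 6163 reached it in the Flt3-ITD/NUP98-HOXD13 list and 5453 in the Flt3-ITD/Runx1-het list. Of the one-list regions, 18 of Flt3-ITD/NUP98-HOXD13 and 0 of Flt3-ITD/Runx1-het spanned 5 kb.

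By position the 2 one-list classes were close to each other. A transcription start site lay within 1 kb of 8.32% of the Flt3-ITD/NUP98-HOXD13 class (95% Wilson interval 7.80 to 8.87) and of 8.40% of the Flt3-ITD/Runx1-het class (7.97 to 8.86), against 42.2% of shared regions. Introns held 59.7% of the Flt3-ITD/NUP98-HOXD13 class and 60.3% of the Flt3-ITD/Runx1-het class. Stretches between genes held 33.8% of the first and 33.1% of the second. The intervals cover counting error only.

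The strongest regions of Flt3-ITD/NUP98-HOXD13 alone were wide domains that the NUP98-HOXD13 list held as well. The strongest lay in an intron and at a start site of 9930021J03Rik (chr19:29731307-29746800), with a fold enrichment of 59.5 in Flt3-ITD/NUP98-HOXD13 and 46.7 in NUP98-HOXD13. A second region of the same gene, 6033 bp from its start site, had 27 in Flt3-ITD/NUP98-HOXD13 and 26.5 in NUP98-HOXD13. None of the other 4 H3K27ac lists had a peak in either.

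An intronic domain of Ascc3, which encodes a helicase of the ASC-1 complex (chr10:50633108-50643290), reached 43.6 in Flt3-ITD/NUP98-HOXD13 and 29.8 in NUP98-HOXD13. One in an intron of Adk, which encodes adenosine kinase (chr14:21143419-21156304), reached 36.5 in the double mutant and 25.1 in NUP98-HOXD13. Both were without a peak in the Flt3-ITD/Runx1-het, Runx1-het, Flt3-ITD and wild-type lists. Nor were they at promoters: the Ascc3 domain lay 28357 bp from the nearest start site of that gene, and no start site lay within 50 kb of the Adk domain.

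A region in an intron of Umad1 (chr6:8334969-8338994) had 29.6 in Flt3-ITD/NUP98-HOXD13, 21.3 in NUP98-HOXD13 and 5.74 in Runx1-het. An intronic region of Nav3, a neuron navigator gene, had 19.4 in Flt3-ITD/NUP98-HOXD13 and 8.81 in NUP98-HOXD13. A domain of 15468 bp at Zfpm2, which encodes the GATA cofactor FOG2, had 16.9 in Flt3-ITD/NUP98-HOXD13, 13 in NUP98-HOXD13 and 3.35 in wild type. The last of the 12 strongest, in an intron of the kinase gene Map4k5, was also listed in NUP98-HOXD13, Runx1-het and Flt3-ITD, at 8.45, 4.46 and 3.44. All 12 had a peak in the NUP98-HOXD13 list and 11 of 12 had an H3K4me1 peak in Flt3-ITD/NUP98-HOXD13, the exception being Hoxb8.

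**Figure D2:**
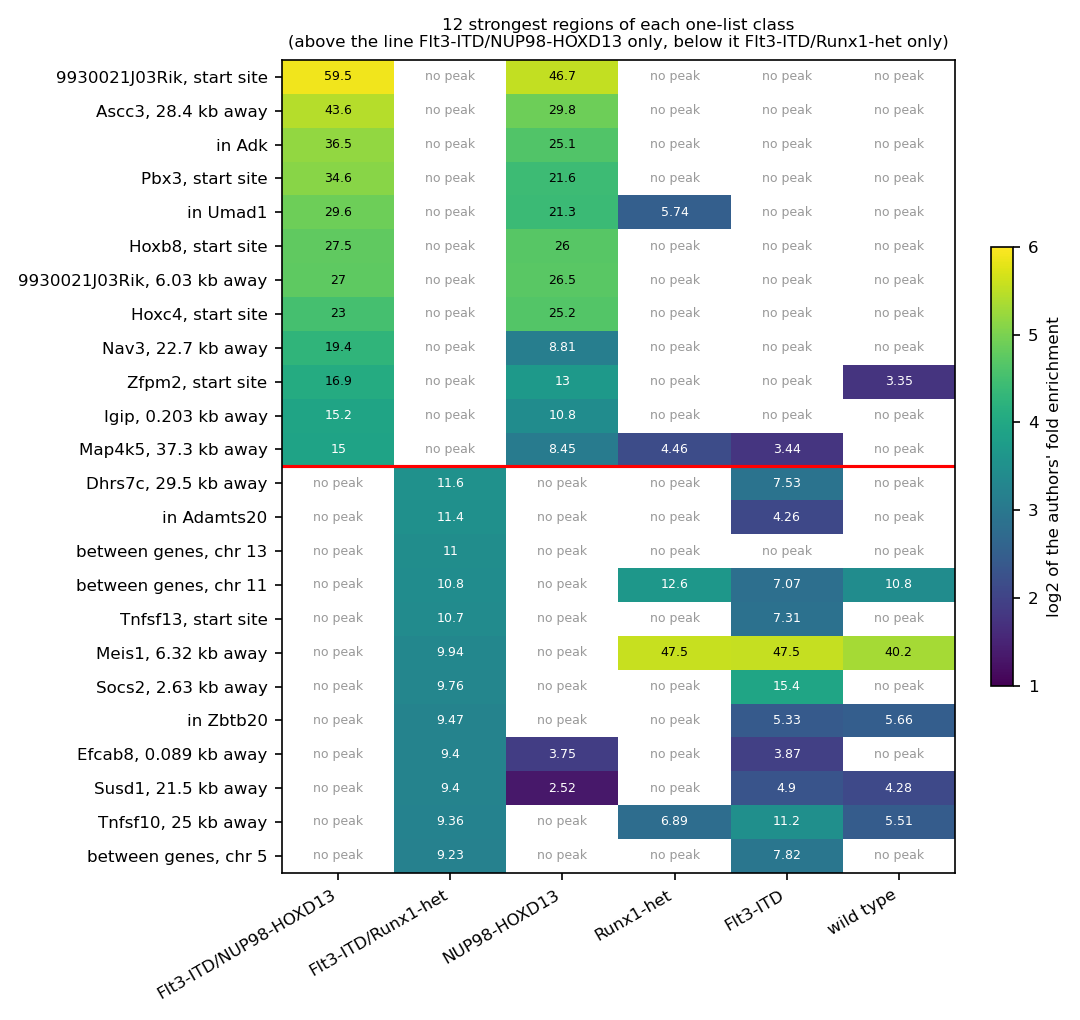
The authors' fold enrichment (number and colour, log2 colour scale) of the strongest H3K27ac peak in each of 6 lists (columns) at the 12 strongest regions of Flt3-ITD/NUP98-HOXD13 only (upper rows) and of Flt3-ITD/Runx1-het only (lower rows), named by the nearest gene and the distance to its start site. Every upper row has a peak in NUP98-HOXD13, and 11 of the 12 lower rows have one in Flt3-ITD, while the values of Runx1-het, Flt3-ITD and wild type at Meis1 and of Flt3-ITD at Socs2 are those of wide peaks that also cover the promoter.

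The HOXB and HOXC clusters, Pbx3 and Meis1 carried H3K27ac over very different lengths in the double mutants, while the HOXA cluster was close in length and the HOXD cluster had none. At the HOXB cluster (146.8 kb with 25 kb on each side) peaks covered 23.0 kb in Flt3-ITD/NUP98-HOXD13, against 0.575 kb in Flt3-ITD/Runx1-het. At the HOXC cluster they covered 29.5 kb in Flt3-ITD/NUP98-HOXD13, and the Flt3-ITD/Runx1-het list had no peak there. In NUP98-HOXD13 HOXB held 20.7 kb of peaks and HOXC 27.4 kb, while HOXC held none in Runx1-het, Flt3-ITD or wild type and HOXB held 1.79 kb, 1.90 kb and 2.43 kb in these. Over all autosomes Flt3-ITD/NUP98-HOXD13 covered 1.11 times the length of Flt3-ITD/Runx1-het.

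Hoxb7 and Hoxb8 shared a promoter domain (chr11:96276796-96285692) with a fold enrichment of 27.5 in Flt3-ITD/NUP98-HOXD13 and 26.0 in NUP98-HOXD13. Hoxc4 and Hoxc5 shared one (chr15:103013833-103020524) with 23.0 in Flt3-ITD/NUP98-HOXD13 and 25.2 in NUP98-HOXD13. Promoter peaks in the same 2 lists and no other stood at Hoxb6, with 10.5 in Flt3-ITD/NUP98-HOXD13 and 7.98 in NUP98-HOXD13, at Hoxc6, with 7.83 in the double mutant and 9.56 in NUP98-HOXD13, and at Hoxc8, with 9.39 in the double mutant and 10.7 in NUP98-HOXD13. Hoxb5 had a weak promoter peak, 2.87, in Flt3-ITD/NUP98-HOXD13 alone. Hoxb4, a gene active in haematopoietic stem cells, went the other way, with no promoter peak in Flt3-ITD/NUP98-HOXD13 but 3.88 in Flt3-ITD/Runx1-het and 3.35 to 5.03 in the other 4 lists.

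The HOXA cluster carried H3K27ac in both double mutants, in a different form. Flt3-ITD/NUP98-HOXD13 had 2 peaks that covered 23.5 kb with a fold enrichment of up to 45.5, and Flt3-ITD/Runx1-het had 6 that covered 20.1 kb with up to 18.3. The form with 2 peaks was not particular to the fusion. Flt3-ITD also had 2, over 20.8 kb and up to 21.4, as did NUP98-HOXD13, over 23.0 kb and up to 27.5. Runx1-het had 6 over 20.5 kb and wild type 9 over 18.2 kb. In Flt3-ITD/NUP98-HOXD13 the peak of 45.5 lay within 1 kb of a start site of Hoxa3, Hoxa7, Hoxa9 and Hoxa10. Any start site of a gene counts here, and Hoxa4, Hoxa5 and Hoxa6 had no promoter peak in that list. In Flt3-ITD/Runx1-het separate peaks stood at Hoxa3 (8.50), Hoxa7 (18.3) and Hoxa9 (15.1), and none at Hoxa10. The Hoxa10 promoter peak of NUP98-HOXD13 had 27.5 and that of Runx1-het 2.96, and Flt3-ITD and wild type had none. No list had a peak in the HOXD cluster, including the promoter of mouse Hoxd13.

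Among the cofactors, Pbx3 and Meis1 went opposite ways. Pbx3, a PBX homeodomain gene, carried 15 peaks over 25.3 kb in Flt3-ITD/NUP98-HOXD13 and none in Flt3-ITD/Runx1-het. Its promoter domain (chr2:34360556-34372925) had 34.6 in Flt3-ITD/NUP98-HOXD13 and 21.6 in NUP98-HOXD13. Meis1, which encodes the partner of HOX and PBX in stem cells, carried 12 peaks over 14.7 kb in Flt3-ITD/NUP98-HOXD13, against 31 over 40.5 kb in Flt3-ITD/Runx1-het. The other lists covered 5.39 kb of the Meis1 locus in NUP98-HOXD13, 55.5 kb with Runx1-het, 54.1 kb with Flt3-ITD and 35.4 kb in wild type. An intronic region 6322 bp from the start site (chr11:19007732-19012392) had no peak in Flt3-ITD/NUP98-HOXD13 or NUP98-HOXD13 but 9.94 in Flt3-ITD/Runx1-het. In Runx1-het, Flt3-ITD and wild type it lay under 1 peak of 10122 to 13187 bp that also covers the promoter, so that their values belong to both. The Meis1 promoter had a peak in every list, at 13 in Flt3-ITD/NUP98-HOXD13, against 23.0 in Flt3-ITD/Runx1-het, and at 5.92 in NUP98-HOXD13, 47.5 in both Runx1-het and Flt3-ITD and 40.2 in wild type. Of the 28 genes of the HOX and cofactor list, 17 had a promoter peak in Flt3-ITD/NUP98-HOXD13, against 8 in Flt3-ITD/Runx1-het, beside 9762 and 9902 of all 20698 autosomal genes. With lists of equal length the Flt3-ITD/NUP98-HOXD13 list stays whole, so its 17 could not change. The Flt3-ITD/Runx1-het count could only stay or fall, and it stayed at 8.

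The strongest regions of Flt3-ITD/Runx1-het alone had lower values in their own list, between 9.23 and 11.6 for the first 12. Of these 12, 11 had a peak in the Flt3-ITD list. The first, 29499 bp from the start site of Dhrs7c (chr11:67827786-67830185), had 11.6 in Flt3-ITD/Runx1-het and 7.53 in Flt3-ITD. One in an intron of Adamts20, a secreted metalloprotease gene (chr15:94307426-94309000), had 11.4 in Flt3-ITD/Runx1-het and 4.26 in Flt3-ITD. The region at the Tnfsf13 promoter (chr11:69684686-69686676) had 10.7 in Flt3-ITD/Runx1-het and 7.31 in Flt3-ITD. None of the 3 had a peak in Flt3-ITD/NUP98-HOXD13, NUP98-HOXD13, Runx1-het or wild type.

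Socs2, a STAT5-induced inhibitor of cytokine signalling, had a region of this class that Flt3-ITD also held. A region 2629 bp from its start site (chr10:95408369-95412654) had no peak in Flt3-ITD/NUP98-HOXD13 but 9.76 in Flt3-ITD/Runx1-het. In Flt3-ITD it lay under a peak of 4928 bp and 15.4 that also covers the promoter. Over the locus, peaks covered 10.6 kb in Flt3-ITD/NUP98-HOXD13 but 19.3 kb in Flt3-ITD/Runx1-het and 18.9 kb in Flt3-ITD, and 0.800 kb, 2.15 kb and 0.769 kb in NUP98-HOXD13, Runx1-het and wild type. The Socs2 promoter itself was held by both double mutants, at 12 in Flt3-ITD/NUP98-HOXD13, against 17.8 in Flt3-ITD/Runx1-het. A region between genes on chromosome 13 (chr13:19209885-19213181) was the strongest of any in Flt3-ITD/Runx1-het that no other H3K27ac list held, at 11.0.

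Some strong regions of this class were missing only from the lists that carry the fusion, a pattern picked out after the values were seen. Besides the Meis1 intron, they included a second region within the Meis1 locus described above, between genes (chr11:18870014-18872490), with 10.8 in Flt3-ITD/Runx1-het, 12.6 in Runx1-het, 7.07 in Flt3-ITD and 10.8 in wild type. A region 25039 bp from the start site of Tnfsf10, which encodes the death ligand TRAIL, had 9.36 in Flt3-ITD/Runx1-het, 6.89 in Runx1-het, 11.2 in Flt3-ITD and 5.51 in wild type. Over the whole class 413 regions (2.77%) had this pattern, and in the Flt3-ITD/NUP98-HOXD13 class 259 regions (2.53%) were held by the same 3 lists and not by NUP98-HOXD13.

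The 50 strongest regions of each class were looked up in the other 4 H3K27ac lists, which played no part in defining the classes. Of the 50 of Flt3-ITD/NUP98-HOXD13 only, NUP98-HOXD13 held 50, Runx1-het 16, Flt3-ITD 14 and wild type 13, and 26 were held by NUP98-HOXD13 and no other. Of the 50 of Flt3-ITD/Runx1-het only, Flt3-ITD held 45, Runx1-het 29, wild type 27 and NUP98-HOXD13 17. With 6 lists of equal length (31518 peaks), NUP98-HOXD13 again held 50 of the first and Flt3-ITD 45 of the second.

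Over whole classes, whose regions were also narrower, the shares were lower. NUP98-HOXD13 held 30.8% of the regions of Flt3-ITD/NUP98-HOXD13 only and 16.2% of those of Flt3-ITD/Runx1-het only. Runx1-het held 23.7% of the first class and 16.9% of the second, Flt3-ITD 29.5% of the first and 25.2% of the second, and wild type 21.1% of the first and 16.6% of the second. Shared regions were held by 76.7% (wild type) to 86.9% (Flt3-ITD). None of the other 4 lists held 4277 regions (41.7%) of the Flt3-ITD/NUP98-HOXD13 class, with a median fold enrichment of 3.39 and at most 7.05, and 8367 (56.0%) of the Flt3-ITD/Runx1-het class, with a median of 3.53 and at most 11.0. Regions that NUP98-HOXD13 and no other list shared with Flt3-ITD/NUP98-HOXD13 numbered 1143, of which 20 reached a fold enrichment of 10. Regions that Flt3-ITD/Runx1-het shared with Runx1-het alone numbered 640, none of which reached 10, and with Flt3-ITD alone 1363, of which 3 did. More regions of that class were shared with NUP98-HOXD13 alone (862) and with wild type alone (671) than with Runx1-het alone. The strongest shared with Runx1-het alone lay in an intron of Msl2, a gene of a histone acetyltransferase complex, at 7.80 in Flt3-ITD/Runx1-het and 4.25 in Runx1-het.

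**Figure D3:**
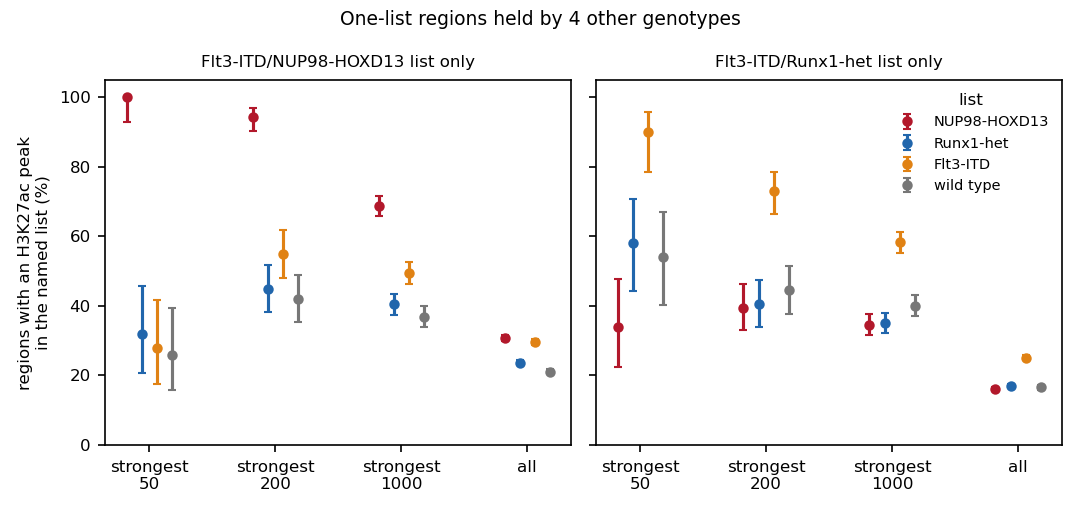
Share (%, with 95% Wilson intervals for counting error) of the regions of Flt3-ITD/NUP98-HOXD13 only (left) and Flt3-ITD/Runx1-het only (right) that have a peak in each of 4 other H3K27ac lists, for the strongest 50, 200 and 1000 regions and for all. NUP98-HOXD13 holds 100%, 94.5%, 68.8% and 30.8% on the left, and Flt3-ITD 90.0%, 73.0%, 58.3% and 25.2% on the right. Median width falls as well, with 3755, 1364, 821 and 478 bp on the left and 1321.5, 893.5, 641 and 352 bp on the right. Wider regions are overlapped more easily, and the part of width in these shares was not tested.

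H3K4me1, a mark of enhancers mapped in other libraries, leaned to the same double mutant as H3K27ac. In the Flt3-ITD/NUP98-HOXD13 class 60.6% of regions had an H3K4me1 peak in Flt3-ITD/NUP98-HOXD13, against 48.0% in Flt3-ITD/Runx1-het. In the Flt3-ITD/Runx1-het class 46.0% had one in Flt3-ITD/NUP98-HOXD13, against 52.3% in Flt3-ITD/Runx1-het. Of the regions with H3K4me1 in 1 double mutant only, Flt3-ITD/NUP98-HOXD13 held 71.1% (2167 against 882) in the first class, 39.3% (1742 against 2686) in the second and 56.5% in shared regions. With H3K4me1 lists of equal length, Flt3-ITD/Runx1-het held 43.4% of the first class and 48.1% of the second, still above the 46.0% of Flt3-ITD/NUP98-HOXD13 in the second. In the single mutants NUP98-HOXD13 and Runx1-het the H3K4me1 lists did not follow the classes, since NUP98-HOXD13 held 64.7% of the regions with a peak in 1 of them in the first class and 66.3% in the second.

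Promoters were mostly shared. Of 20698 autosomal protein-coding genes, 9402 had a promoter peak in both double mutants, 360 (1.74%) in Flt3-ITD/NUP98-HOXD13 only and 500 (2.42%) in Flt3-ITD/Runx1-het only. The one-list promoter peaks were weak, with a median fold enrichment of 4.05 in the first group and 4.06 in the second. NUP98-HOXD13 held 216 of the 360 (60.0%) and 175 of the 500 (35.0%). Runx1-het held 63 of the 360 (17.5%) and 93 of the 500 (18.6%). A gene can have a one-list promoter within a shared region, where the other list's peak lies more than 1 kb from its start sites, and 29 of the 360 and 8 of the 500 were of this kind. The strongest of Flt3-ITD/NUP98-HOXD13 only were Hoxa10, Pbx3, Hoxb7, Hoxb8, Gm26602, Hoxc4, Hoxc5 and Zp1, of which Hoxa10, Gm26602 and Zp1 lay in shared regions. Zp1, an egg coat glycoprotein gene, had 19.8 in Flt3-ITD/NUP98-HOXD13, 19.1 in NUP98-HOXD13 and 11.7 in Flt3-ITD. The strongest of Flt3-ITD/Runx1-het only were Cracr2b, a regulator of calcium release-activated channels, at 15.9, and Pdzd7, a scaffold gene known from hearing, at 12.3. Both lay in regions that Flt3-ITD/NUP98-HOXD13 shared, and in no other H3K27ac list did a peak reach within 1 kb of their start sites. Next came Tnfsf13, Efcab8 (9.40), Apof, again in a shared region, and Evi5 (7.80 each), Ndrg2 (7.49) and the homeobox gene Nkx2-3 (7.27). Nkx2-3 had 8.37 in Runx1-het, 8.51 in Flt3-ITD and 8.62 in wild type, and no peak in NUP98-HOXD13.

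Some genes gathered many one-list regions within 50 kb of their start sites, and each pair of counts that follows gives the regions of Flt3-ITD/NUP98-HOXD13 only against those of Flt3-ITD/Runx1-het only. The most of Flt3-ITD/NUP98-HOXD13 only were at Foxp1, a forkhead repressor of lymphoid and myeloid cells, with 35 against 16 of Flt3-ITD/Runx1-het only. Akap13, an anchor of protein kinase A, had 25 against 9, Pan3, a subunit of the mRNA deadenylase, 25 against 5, and the splicing factor gene Mbnl1 and the transcription factor gene Mef2c 23 against 6 each. Samsn1, an adaptor that restrains B cell activation, had 18 against 0. These genes were picked for their high counts. Equal length shortens only the Flt3-ITD/Runx1-het list, which cannot raise the counts of that list's own regions. Under that setting Foxp1 had 40 against 8 and Samsn1 20 against 0, while the share over all genes rose from 40.1% to 55.9%. At a −log10 q of at least 5 Foxp1 had 15 against 3 and Samsn1 7 against 0, beside 60.9% over all genes. Flt3, the neighbour of Pan3, had 7 against 0.

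The most of Flt3-ITD/Runx1-het only were at Map7, a microtubule-associated protein gene, with 1 of Flt3-ITD/NUP98-HOXD13 only against 33. Cmip had 2 against 27, Ksr1, a scaffold of the RAF-MEK-ERK cascade, 6 against 27, and the semaphorin gene Sema4d 1 against 23. With lists of equal length Map7 had 2 against 25, Cmip 2 against 18, Ksr1 6 against 18 and Sema4d 2 against 16. At a −log10 q of at least 5 Map7 had 0 against 12 and Sema4d 1 against 6, but Cmip had 3 against 4 and Ksr1 turned round to 4 against 2. Elmo1, an activator of the GTPase RAC, was high on both sides, with 18 against 27. Runx1 itself had 11 against 25, but 12 against 11 with lists of equal length. Peaks at the Runx1 locus covered 48.0 kb in Flt3-ITD/NUP98-HOXD13, against 46.4 kb in Flt3-ITD/Runx1-het, and the promoter peak had 19.7 in Flt3-ITD/NUP98-HOXD13, against 14.7 in Flt3-ITD/Runx1-het. The allele lesions themselves cannot be read from these lists: the Flt3 promoter had 25 in Flt3-ITD/NUP98-HOXD13, against 17.8 in Flt3-ITD/Runx1-het, and the Nup98 promoter had 37.4 in Flt3-ITD/NUP98-HOXD13, against 34.5 in Flt3-ITD/Runx1-het.

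Of the regions with a gene within 50 kb, 40.1% of the one-list ones were of Flt3-ITD/NUP98-HOXD13 (7645 against 11439), or 55.9% with lists of equal length. Each gene list is set beside these shares, with counts again as Flt3-ITD/NUP98-HOXD13 only against Flt3-ITD/Runx1-het only. The HOX and cofactor genes had 23 against 9 (71.9%), or 23 against 4 (85.2%) with lists of equal length. At a −log10 q of at least 5 they had 16 against 3 (84.2%), beside 60.9% over all genes. With start sites within 100 kb they had 25 against 18 (58.1%), beside 40.05% over all genes. The median difference per gene, Flt3-ITD/NUP98-HOXD13 minus Flt3-ITD/Runx1-het, was 0, as it was over all genes, since 16 of the 28 HOX and cofactor genes had equal numbers. The list of ubiquitous promoters, a control, also stood high, with 18 against 9 (66.7%), of which Ywhaz alone gave 11 against 3, and 22 against 6 (78.6%) with lists of equal length. At a −log10 q of at least 5 it had 3 against 3 (50%). All 10 of its autosomal promoters had a peak in both lists.

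STAT5 target genes leaned to Flt3-ITD/Runx1-het, with 17 regions of Flt3-ITD/NUP98-HOXD13 only against 43 (28.3%) and 18 against 29 (38.3%) with lists of equal length, and a median difference per gene of -2. At a −log10 q of at least 5 the lean was gone, with 16 against 13 (55.2%) beside 60.9% over all genes. In the deposited lists the inhibitors of the pathway all had more regions of Flt3-ITD/Runx1-het only, with 0 against 7 at Socs2, 0 against 6 at Socs1, 0 against 4 at Socs3 and 0 against 2 at Cish. The kinase gene Pim1 had 2 against 5. The survival gene Mcl1 had 3 against 0 and the cyclin gene Ccnd1 2 against 0. Both lists held 14 of the 17 promoters each, with Ccnd1 and the cytokine gene Lif in Flt3-ITD/NUP98-HOXD13 only, and Socs3 and the interleukin receptor gene Il2ra in Flt3-ITD/Runx1-het only.

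Granulocyte genes had 3 regions of Flt3-ITD/NUP98-HOXD13 only against 20 (13%), among them Gfi1, a transcriptional repressor needed for granulocyte development, with 2 against 5, and the peroxidase gene Mpo and the transcription factor gene Cebpd with 0 against 3 each. With lists of equal length the count was 6 against 10 (37.5%). The granule genes Camp and Ngp and the calprotectin genes S100a8 and S100a9 had no region and no promoter peak in either list. T and NK cell genes had 5 against 21 (19.2%), mostly through Notch1 (1 against 11) and Gata3 (0 against 6), with 5 against 13 (27.8%) in lists of equal length and 7 against 7 (50%) at a −log10 q of at least 5, beside 60.9% over all genes. At Gata3, a regulator of T cell fate, peaks covered no base in Flt3-ITD/NUP98-HOXD13 or NUP98-HOXD13 but 7.85 kb in Flt3-ITD/Runx1-het, 4.49 kb in Runx1-het, 5.78 kb in Flt3-ITD and 3.70 kb in wild type. Cd3e and Cd3g had no promoter peak in either double mutant, and Cd3d had one in both. Megakaryocyte genes had 8 against 28 (22.2%), with the ETS factor gene Fli1 at 2 against 12, and 10 against 16 (38.5%) with lists of equal length. Erythroid genes had 7 against 18 (28.0%), and 10 against 8 (55.6%) with lists of equal length.

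The stem and multipotent progenitor list had 57 against 96 (37.3%) and 65 against 51 (56.0%) with lists of equal length, near the share over all genes in both. The lists of MAPK feedback genes (32 against 34), cytokine receptors (37 against 43), myeloid leukaemia drivers (44 against 58), interferon response (15 against 25), monocytes and macrophages (19 against 26), dendritic cells (11 against 20) and B cells (6 against 7) lay between 35.5% and 48.5%. With lists of equal length the leukaemia drivers (68.8%), MAPK feedback genes (68.4%) and cytokine receptors (63.8%) stood above the 55.9% over all genes, and the other 4 lay between 51.6% and 53.8%. At a −log10 q of at least 5, interferon response genes had 11 against 2 (84.6%) beside 60.9% over all genes. RUNX partners and targets had 28 against 59 (32.2%), and 37 against 31 (54.4%) with lists of equal length. The mast cell, basophil and eosinophil genes had 16 against 21 (43.2%), and 18 against 10 (64.3%) with lists of equal length. Of these 15 genes, 5 had a promoter peak in Flt3-ITD/NUP98-HOXD13, against 1 in Flt3-ITD/Runx1-het. Over all 20698 autosomal genes 9762 had one in the first list and 9902 in the second, so neither list reached that share here. Of the double mutants, Gata2 (5.87), Mitf (3.79), Cpa3 (2.87) and Prg2 (4.18) had theirs in the Flt3-ITD/NUP98-HOXD13 list only. These peaks were weak, since promoters held by both double mutants had a median of 11.2 in that list. The promoter counts of these genes were not repeated with lists of equal length. Gata2, a progenitor and mast cell transcription factor gene, had 6.21 kb of peaks in Flt3-ITD/NUP98-HOXD13, against 1.16 kb in Flt3-ITD/Runx1-het, over the gene and 25 kb on each side. By regions within 50 kb Gata2 leaned the other way, with 2 against 6. Genes not expressed in blood had 0 against 3 regions and no promoter peak in either list.

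**Figure D4:**
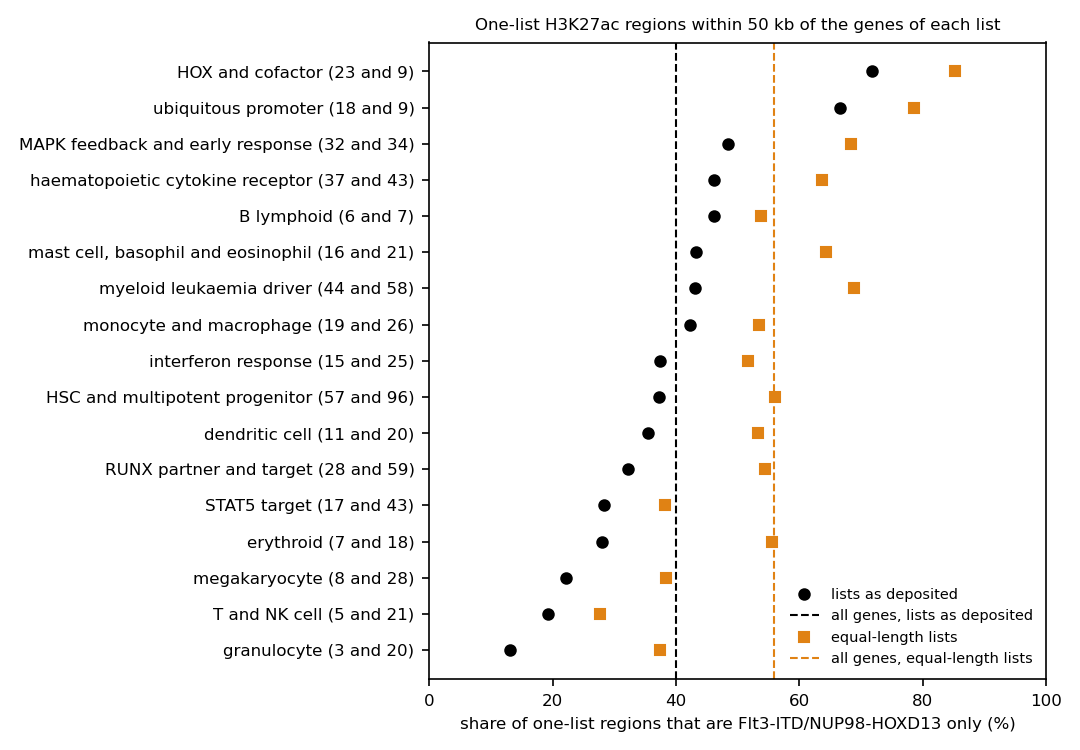
Share (%, x axis) of the one-list H3K27ac regions near the genes of each list (y axis, with the counts for Flt3-ITD/NUP98-HOXD13 only and Flt3-ITD/Runx1-het only in the deposited lists) that are of Flt3-ITD/NUP98-HOXD13 only, for the deposited lists (circles) and lists of equal length (squares). Dashed lines are the shares over all genes, 40.1% and 55.9%; HOX and cofactor and ubiquitous promoter genes lie to the right of both lines and STAT5 target, megakaryocyte, T and NK cell and granulocyte genes to the left.

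Progenitor markers had promoter H3K27ac in both double mutants, at 6 of 7 genes in Flt3-ITD/NUP98-HOXD13 and 5 of 7 in Flt3-ITD/Runx1-het, with Cebpa without a promoter peak in either. In Flt3-ITD/NUP98-HOXD13 promoter peaks stood at 0 of 5 granulocyte, 0 of 4 monocyte and macrophage, 1 of 4 B cell, 3 of 5 T and NK cell, 1 of 5 erythroid, 3 of 4 megakaryocyte and 1 of 5 endothelial and stromal markers. In Flt3-ITD/Runx1-het they stood at 1, 0, 0, 3, 2, 3 and 2 of the same markers. In sorted bulk cells fewer cells of a type and less mark per cell cannot be told apart, and the part of cell composition in the counts above was not tested.

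Of the 6 strongest shared regions in each list, all but 1 lay at a start site, the exception being a region 3513 bp from the start site of Sirt4. Usp38, a deubiquitinase gene, had 78.0 in Flt3-ITD/NUP98-HOXD13, against 60.2 in Flt3-ITD/Runx1-het, and the zinc finger gene Unk had 76.9 in Flt3-ITD/NUP98-HOXD13, against 68.6 in Flt3-ITD/Runx1-het. The Pim1 promoter had 67.8 in Flt3-ITD/NUP98-HOXD13, against 32.7 in Flt3-ITD/Runx1-het, beside 47.6 in NUP98-HOXD13, 59.7 with Runx1-het, 54.2 with Flt3-ITD and 28.5 in wild type. Since fold enrichment depends on the list, these values are set side by side and give no measure of change.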

How the data were processed

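H3K27ac and H3K4me1 were mapped by ChIPmentation in haematopoietic stem and progenitor cells that had been sorted. Sample labels gave the groups. The submitters' processing notes name BWA, MACS2 and the build mm10 (GRCm38). Versions, the peak threshold and the control used are not stated there. Each deposited list is pooled over the samples of a group. The deposited columns hold a score, a fold enrichment (a ratio), −log10 p and −log10 q values from MACS2 and the summit position. The lowest −log10 p was 2.05 in both double mutants. The deposited files give no read counts, so depth is unknown.

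Peaks on chromosomes 1 to 19 of both lists were merged (1 bp), in Python 3.11.15. Regions went to the nearest start site of a protein-coding gene within 50 kb (GENCODE mouse release 21), with promoters taken as 1 kb either side of a start site. Fold enrichment was never subtracted between lists. No test was possible. Merging and classification were tested on simulated lists. Members, gene lists and the rule for named genes were chosen with earlier results of these data known. Named genes are those nearest to the 12 strongest regions of each one-list class and the 6 strongest shared ones, the 10 with most regions, the 8 strongest one-list promoters each way, the strongest regions by list pattern, up to 4 per gene list, and Flt3, Runx1, Nup98 and Hoxd13; other genes were named as members of the fixed lists or markers after their values were seen. Alternatives were equal-length lists, −log10 q of at least 5, coverage of at least 0.5 of a region, merging within 1 kb or over 6 lists, the strongest 50% of a list against the full other list, all chromosomes, and start sites within 2 kb and 100 kb. Sequence at peak summits was not analysed, since no genome was used here. Some values are not reported here.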

Additional observations from a re-analysis of the deposited data

Results flagged for a closer look

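Chromosome Y lay outside the comparison. The Flt3-ITD/Runx1-het H3K27ac list had 5 peaks there, the Flt3-ITD/NUP98-HOXD13 list 1 and the wild-type list 0, so this was a signal above the control list in data that the comparison did not use. Runx1-het had 5, Flt3-ITD 1 and NUP98-HOXD13 0. The number of male animals behind each pooled list is not stated in the labels. Its part in the autosomal counts was not tested.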

How the results depend on the processing

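No paired analysis was possible because each group has 1 pooled list, and for the same reason no replicate could be left out. The number of regions by list depended most on the settings. Regions of Flt3-ITD/NUP98-HOXD13 only numbered 4976 at a −log10 q of at least 5, 5389 with peaks merged within 1 kb, and 1173 for the strongest 50% of the list against the full other list. Regions of Flt3-ITD/Runx1-het only numbered 9050 with equal-length lists, 3141 at that q, 8386 with the 1 kb merge and 2459 for the strongest 50%, and shared regions 13861 at that q. The Flt3-ITD/NUP98-HOXD13 share of one-list regions, 40.7% in the main setting, was 56.7% with equal-length lists, 61.3% at that q, 44.6% with coverage of 0.5 of a region, 39.1% with the 1 kb merge and 32.3% for the strongest 50%, so it crossed 50% under 2 settings. The cause was not tested beyond list length and threshold, which those settings change. Start sites within 2 kb were held by 14.6%, 13.2% and 44.8% of Flt3-ITD/NUP98-HOXD13 only, Flt3-ITD/Runx1-het only and shared regions.

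With 6 lists of equal length, regions of Flt3-ITD/NUP98-HOXD13 only were held by NUP98-HOXD13 at 31.9%, Runx1-het 27.8%, Flt3-ITD 31.2% and wild type 19.2%, and regions of Flt3-ITD/Runx1-het only by NUP98-HOXD13 at 18.3%, Runx1-het 22.1% and Flt3-ITD 30.03%. With equal-length H3K4me1 lists Flt3-ITD/Runx1-het held 43.4% of the first class and 48.1% of the second. The 12 strongest regions of Flt3-ITD/NUP98-HOXD13 only stayed of that class under 4 of 5 settings, and 11 did with the 1 kb merge. Of the 12 of Flt3-ITD/Runx1-het only, 9 did with the 1 kb merge, 10 with regions merged over 6 lists and 12 under the other 3. The planned sequence windows at summits, in a shorter and a longer form and away from promoters, were not run. No read depth can be had from the lists, so a missing peak is not shown to be missing signal.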
